A study of Homo sapiens with 2 samples.

Results

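This report covers 8 genes of cell surface antigens in AsPC-1 cells. They are 4 members of the carcinoembryonic antigen (CEACAM) family, CEACAM1, CEACAM5, CEACAM6 and CEACAM7, together with the pancreatic and epithelial tumour antigens MSLN, EPCAM, PSCA and FOLR1. The genes were chosen by name, and every probe set annotated to exactly 1 of these symbols was read, which gave 17 probe sets for the 8 genes, of 41097 probe sets for 19775 genes in all. AsPC-1 is an established human pancreatic ductal adenocarcinoma line. Both arrays carry RNA of these cells, 1 array from cells given control siRNA and 1 from cells given siRNA against the progesterone receptor gene PGR, a steroid-activated transcription factor. There were no replicates, so no test or error between cultures can be given, and every difference below describes these 2 arrays.

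The study lists a pair of PGR siRNAs and does not state which was used for the array. Their antisense strands, as the study lists them, are shown because PGR interference is the difference that the labels name, with capitals marking the seed, bases 2 to 8. The labels give no sequence, and the study does not list that of the control siRNA.
si-PGR-1: uUGCCUCAaaccaauugcctt
si-PGR-2: uCUUGGGUaauugugcagctt

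PGR itself gave no check of the labels. The brighter of its probe sets gave 16.1 on the control-labelled array and 73.3 on the PGR-siRNA-labelled array, both under the signal floor of 97.9, and in the order opposite to the labels. The floor is the median taken over both arrays' values for every named probe set, and it stands in for detection calls, which were not used here. Of 11 measured epithelial and ductal marker genes, among them the keratins KRT8, KRT18 and KRT19 and the cadherin CDH1, all 11 were above the floor on both arrays. Above the floor on at least 1 array were 2 of 7 fibroblast markers, 1 of 5 leukocyte markers, 1 of 7 granulocyte markers, 1 of 5 endothelial markers and none of the 6 mesothelial and 4 acinar markers. Differences are log2(intensity + 1), PGR siRNA minus control, and each direction rests on the labels.

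The CEACAM proteins are adhesion molecules of the immunoglobulin superfamily. CEACAM5 is the carcinoembryonic antigen measured in serum as a tumour marker, and with CEACAM6 and CEACAM7 it is held in the membrane by a glycosylphosphatidylinositol (GPI) lipid anchor, whereas CEACAM1 spans the membrane and carries inhibitory tyrosine motifs in its tail. Mesothelin (MSLN), prostate stem cell antigen (PSCA) and the folate receptor FOLR1 are GPI-anchored as well, and EPCAM is a transmembrane adhesion protein of epithelia. Several of them are targets of antibodies or engineered T cells in pancreatic and other epithelial cancers.

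Among the 8 genes, signal on these arrays was found for EPCAM and FOLR1. EPCAM read 20351 on the control-labelled array and 20304 on the PGR-siRNA-labelled array, and the brighter FOLR1 probe set read 1844 and 1712. CEACAM1 and CEACAM6 reached the floor on the control-labelled array alone, in 1 probe set each. CEACAM5, CEACAM7, MSLN and PSCA were below the floor on both arrays in every probe set, so a level of these 4 mRNAs, and a difference in them, was not measurable here. Genes below the floor on both arrays made up 41.2% of all genes. By probe set, 3 of 17 were above the floor on both arrays, 2 on 1 array and 12 on none, where 47.6% of all named probe sets were below it on both.

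**Figure D1:**
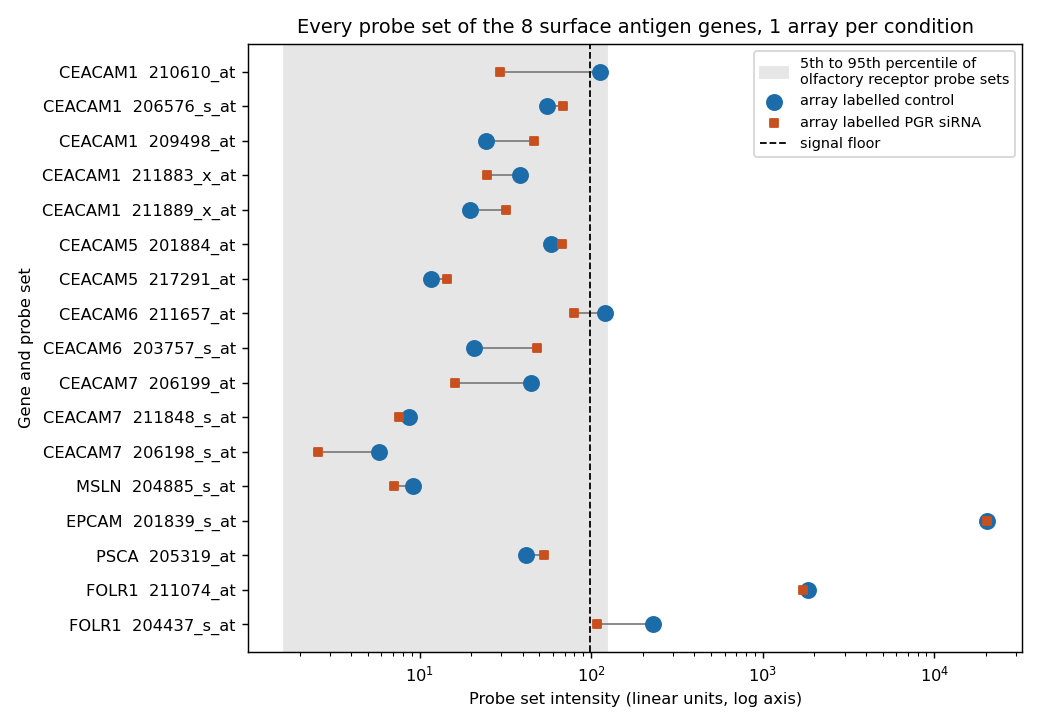
Intensity of each of the 17 probe sets (rows, with gene and probe set name) on a log axis, circles for the control-labelled array and squares for the PGR-siRNA-labelled array, with the signal floor of 97.9 dashed and the 5th to 95th percentile of 135 olfactory receptor probe sets in grey. EPCAM and the brighter FOLR1 probe set stand clear of both, and all others but the control value of the dimmer FOLR1 probe set lie in the grey range.

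As another gauge of background, 135 probe sets of olfactory receptor genes, most of which are used mainly in the olfactory epithelium, ran from 1.62 at the 5th percentile to 123 at the 95th. They are a rough gauge, since 91.1% of them stayed under the floor on both arrays while the highest value was 1907. The control values of 113 for CEACAM1 and 120 for CEACAM6 lie inside that range although they pass the floor. By the values as read, 2 of the 4 members that reached the floor were at least 1.5-fold lower on the PGR-siRNA-labelled array and 0 at least 1.5-fold higher. Set against the floor, the difference was at least 1.15-fold for CEACAM1 and at least 1.22-fold for CEACAM6, and the count of members 1.5-fold lower was 0. By the values as read, of all 11625 genes past the floor on at least 1 array, 4.83% were at least 1.5-fold lower and 3.71% at least 1.5-fold higher. Both lower members, CEACAM1 and CEACAM6, passed the floor through their control value alone. Of the 789 genes that passed on 1 array only, 39.4% were at least 1.5-fold lower and 28.5% at least 1.5-fold higher, so this count shows little about the members. Among genes above the floor on both arrays, 2.32% were at least 1.5-fold lower and 1.90% at least 1.5-fold higher, and neither EPCAM nor FOLR1 was, by the brightest probe set. A 2-fold rule on the values as read counts CEACAM1, whose bound does not reach it, beside 1.68% lower and 1.14% higher of the 11625 genes.

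**Figure D2:**
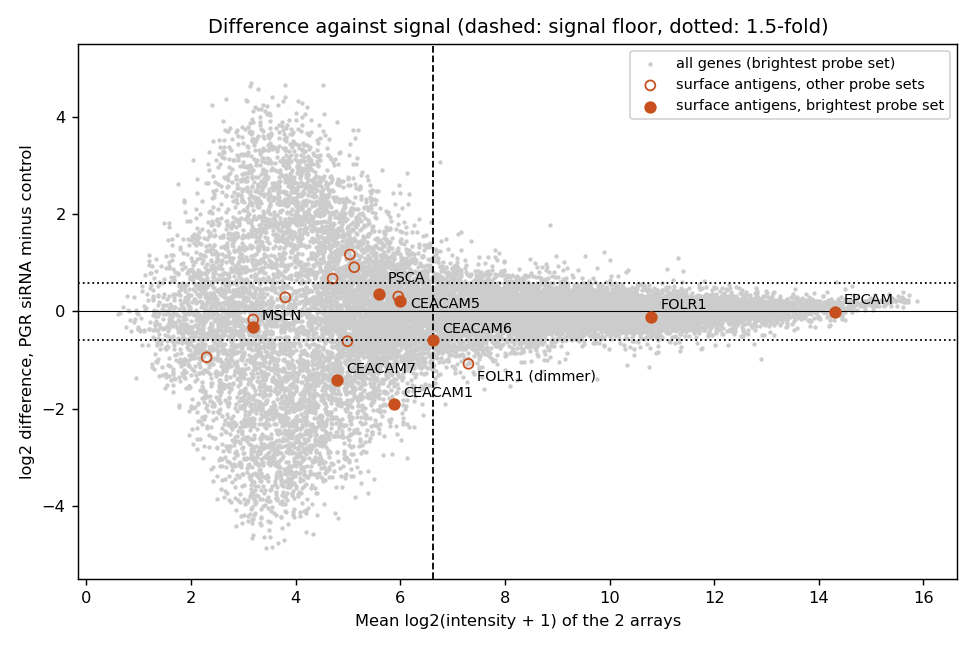
Log2 difference (PGR-siRNA-labelled minus control-labelled array) against mean log2 signal, with all genes in grey, the brightest probe set of each surface antigen filled and the other probe sets open; the dashed line is the signal floor and the dotted lines are 1.5-fold. EPCAM at -0.0033 and FOLR1 at -0.11 lie in the narrow part of the cloud, and the CEACAM genes, MSLN and PSCA lie at or left of the floor, where the scatter is wide.

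EPCAM differed little between the arrays. Its single probe set, 201839_s_at, gave a log2 difference of -0.0033. The 1000 genes nearest in mean signal had a median difference of 0.068 and a middle 95% from -0.30 to 0.33. Quantile normalization gave -0.098 for EPCAM, loess -0.081 and median centring 0.047, so the sign of this small value depends on the scaling.

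The partners of EPCAM were read from a list of 23 genes, of which 21 were measured and all 21 lay above the floor on both arrays. By the brightest probe set none was 1.5-fold different in either direction. Among dimmer probe sets above the floor on both arrays, those of CLDN1 at -0.61 and CCND1 at -0.60 were past 1.5-fold lower, and none was past it higher. The median of the list was -0.020, with 8 above 0 and 13 below, beside 0.023 over all 10836 genes above the floor on both arrays. Median centring turned the list's median to 0.031, and averaging all probe sets of each gene moved it to -0.064. CLDN7, a claudin that binds EPCAM directly, read 14302 and 13157, a difference of -0.12. The tetraspanin TSPAN8, found in complexes with EPCAM and CLDN7, read 15210 and 16698, a difference of 0.13. ADAM17, a protease that sheds the outer part of EPCAM, stood at -0.0050 by its brightest probe set, and its other probe sets above the floor on both arrays gave -0.40 and 0.21. CTNNB1 (β-catenin), which joins the released tail of EPCAM in signalling, stood at -0.02 with other probe sets at -0.01 and -0.47. FHL2, another partner of that tail, stood at -0.07. The ends of the list were CD44, a hyaluronan receptor, at -0.48 by its brightest probe set, and CLDN3, another claudin, at 0.37 with its other probe set at 0.027. The 8 CD44 probe sets above the floor on both arrays ran from -0.48 to 0.071.

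FOLR1 alone among the members had 2 probe sets above the floor on both arrays, so no other member could be compared in this way, and the sizes disagreed. Probe set 211074_at read 1844 on the control-labelled array and 1712 on the PGR-siRNA-labelled array, a difference of -0.11 and within the middle 95% of genes of like signal (-0.46 to 0.38). Probe set 204437_s_at read 229 and 108, a difference of -1.08 or 2.11-fold lower. At its signal the middle 95% ran from -0.92 to 0.83, so this value lay outside. Of all probe sets above the floor on both arrays, 0.291% were at least 2-fold lower and 0.204% at least 2-fold higher. Its PGR siRNA value is above the floor and below the 95th percentile of the olfactory receptor probe sets. Both probe sets were lower on the PGR-siRNA-labelled array, and the sizes were 0.97 apart.

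Such a gap was uncommon on these arrays. Over 5203 genes with another probe set above the floor on both arrays, the gap between the brightest and the next brightest had a median of 0.20, and 77 genes (1.48%) had a gap at least that of FOLR1. Among the 1820 genes whose second probe set was of like brightness to the dimmer FOLR1 probe set, within 2-fold of its mean of 168, 65 (3.57%) did. With both probe sets averaged FOLR1 stood at -0.59, just past 1.5-fold, and the arrays do not settle which of the sizes holds. The mark s in the name of the dimmer probe set says that its probes match more than 1 transcript; whether this has a part in the gap was not tested.

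**Figure D3:**
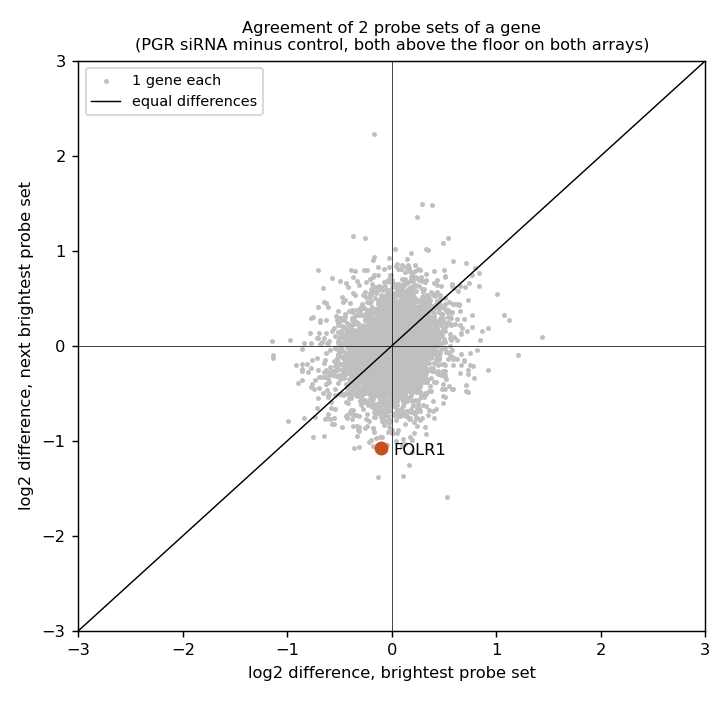
Log2 difference (PGR-siRNA-labelled minus control-labelled array) of the next brightest probe set against that of the brightest, 1 point for each of 5203 genes with both above the floor on both arrays, with a line of equal differences. FOLR1, at -0.11 and -1.08, lies 0.97 from equality, where the median gap is 0.20.

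FOLR2 and FOLR3, the other folate receptors and the neighbours of FOLR1 on chromosome 11, were below the floor on both arrays. Of 22 genes of folate uptake and use, 19 were measured, 15 reached the floor and 14 did so on both arrays. None of the 15 was 1.5-fold different by the brightest probe set. The median over the 14 was 0.11, with 9 above 0 and 5 below, and 0.028 with all probe sets of each gene averaged. SLC19A1, the reduced folate carrier, read 311 and 359 by its brightest probe set, a difference of 0.21, and another probe set above the floor on both arrays gave 0.036. Another SLC19A1 probe set reached the floor on the control-labelled array alone, at 135 and 28.5, and was at least 1.38-fold lower against the floor. SLC46A1, the proton-coupled folate transporter, read 598 and 478, a difference of -0.32, whereas its other probe sets above the floor on both arrays gave 0.24 and 0.27. The sign for SLC46A1 thus depends on the probe set. MTR, methionine synthase, was lowest at -0.33 with another probe set at 0.14, and ALDH1L2, a mitochondrial enzyme that oxidises formyl-folate, was highest at 0.29.

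CEACAM5, CEACAM6 and CEACAM7 lie side by side on chromosome 19, and CEACAM1 lies farther along the same chromosome next to CEACAM8 and the pregnancy-specific glycoprotein (PSG) genes. The 250 bases before the start site of each of the 4 CEACAM genes are shown to make visible how alike the family is, 5′ to 3′ on the strand of the gene, from RefSeq on GRCh38.p14. They are chr19:42528482-42528731 (minus strand) for CEACAM1, chr19:41708376-41708625 (plus strand) for CEACAM5, chr19:41755280-41755529 (plus strand) for CEACAM6 and chr19:41688271-41688520 (minus strand) for CEACAM7. Capitals mark AGAACA, a half-site bound by receptors of the PGR kind.
CEACAM1: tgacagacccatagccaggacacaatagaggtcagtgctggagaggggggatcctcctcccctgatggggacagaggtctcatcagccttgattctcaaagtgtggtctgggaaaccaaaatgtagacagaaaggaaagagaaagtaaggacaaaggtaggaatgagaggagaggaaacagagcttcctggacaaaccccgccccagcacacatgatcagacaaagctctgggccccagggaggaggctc
CEACAM5: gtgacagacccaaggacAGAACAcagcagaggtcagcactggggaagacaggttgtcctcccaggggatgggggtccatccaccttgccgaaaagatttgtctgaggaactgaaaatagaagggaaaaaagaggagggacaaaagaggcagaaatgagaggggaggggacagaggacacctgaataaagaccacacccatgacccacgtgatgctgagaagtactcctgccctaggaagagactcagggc
CEACAM6: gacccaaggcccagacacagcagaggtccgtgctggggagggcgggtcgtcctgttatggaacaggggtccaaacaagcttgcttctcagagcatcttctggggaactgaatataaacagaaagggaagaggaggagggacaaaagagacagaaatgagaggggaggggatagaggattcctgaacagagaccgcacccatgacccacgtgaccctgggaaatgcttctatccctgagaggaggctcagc
CEACAM7: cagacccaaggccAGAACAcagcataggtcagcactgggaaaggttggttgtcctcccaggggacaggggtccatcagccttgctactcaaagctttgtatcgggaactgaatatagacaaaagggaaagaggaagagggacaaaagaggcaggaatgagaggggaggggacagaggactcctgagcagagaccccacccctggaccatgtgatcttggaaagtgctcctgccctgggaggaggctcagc

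In pairwise global alignment the 4 windows shared 68.0% (CEACAM1 with CEACAM5) to 82.4% (CEACAM5 with CEACAM7) of their 250 bases. The same windows shared 43.2% to 55.6% with those of 31 genes of GPI anchor synthesis, which are no relatives. AGAACA or its reverse complement TGTTCT was found in 2 of the 4, CEACAM5 at -233 to -228 from the start site and CEACAM7 at -237 to -232, and in 12.4% of 35116 such windows of all genes. These 2 windows are the most alike pair, at 82.4%, so their matches are not independent. A match is a description of these letters and says nothing of binding. MSLN, EPCAM, PSCA and FOLR1 were named only.

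CEACAM1 was read by 5 probe sets that did not agree. The brightest by mean intensity, 210610_at, read 113 on the control-labelled array and 29.5 on the PGR-siRNA-labelled array, a log2 difference of -1.90, at the lower edge of the middle 95% of genes of like signal (-1.90 to 1.62). The other probe sets were below the floor on both arrays, with 206576_s_at at 55.1 and 68.3, 209498_at at 24.4 and 46.7, 211883_x_at at 38.3 and 24.7, and 211889_x_at at 19.7 and 32.0. Of the 5 probe sets 3 were higher and 2 lower on the PGR-siRNA-labelled array, from -1.90 to 0.91, with an SD of 1.15. Probe sets of the same gene below the floor on both arrays had a pooled SD of 1.55 over 4350 genes, so spread of this size is usual at such signal. Set against the floor in place of its dimmer value, CEACAM1 by 210610_at was at least 1.15-fold lower. No direction for CEACAM1 mRNA follows from these values.

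CEACAM6, an adhesion molecule linked to resistance of detached cells to cell death, was read by 2 probe sets of opposite sign. Probe set 211657_at read 120 on the control-labelled array and 79.3 on the PGR-siRNA-labelled array, a difference of -0.59 as read. Genes of like signal ran from -1.18 to 1.15 in their middle 95%. Probe set 203757_s_at read 20.9 and 48.3, a difference of 1.17 with both values below the floor. The PGR-siRNA-labelled value of 211657_at is under the floor, and its bound of 1.22-fold does not reach 1.5-fold.

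CEACAM5 was below the floor in both of its probe sets. Probe set 201884_at read 58.0 and 67.7 and probe set 217291_at read 11.6 and 14.4. CEACAM7, a family member of colon and pancreatic duct epithelium, was read by 3 probe sets, with 206199_at at 44.3 and 16.1, 211848_s_at at 8.67 and 7.61, and 206198_s_at at 5.83 and 2.55. All 3 CEACAM7 probe sets were lower on the PGR-siRNA-labelled array, from -1.41 to -0.17, but the middle 95% of genes of like signal to the brightest ran from -3.04 to 2.67. All values of these genes lie under the floor and inside the 5th to 95th percentile range of the olfactory receptor probe sets. Within that gauge 201884_at ranked high, above 83.0% of them on the control-labelled array and 91.9% on the PGR-siRNA-labelled array. No fold is given for these genes.

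Of 14 measured relatives, other CEACAM and PSG genes, CEACAM19 alone reached the floor, on 1 array. It read 94.9 on the control-labelled array and 193 on the PGR-siRNA-labelled array, at least 1.98-fold higher when set against the floor. CEACAM19, a distant member of the family, was read by a single probe set. CEACAM8, a granulocyte member and the neighbour of CEACAM1, read 2.28 and 1.67.

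Genes of CEACAM binding and signalling were measured for 13 of 15, with 11 above the floor on both arrays and a median of -0.046 that median centring turned to 0.0050. By the brightest probe set 1 of the 11 was at least 1.5-fold lower, beside 2.32% of all genes above the floor on both arrays. PTPN6, a phosphatase that docks on the phosphorylated tail of CEACAM1, read 486 and 626, a difference of 0.37 and the highest of the list. PTPN11, its relative, read 10218 and 9606 by the brightest probe set, a difference of -0.09, and the other probe sets above the floor on both arrays gave 0.070, -0.60 and 0.75. The lower gene was ITGA5, the fibronectin receptor subunit with which CEACAM6 has been linked, at 190 and 100, a difference of -0.92 from a single probe set. Its PGR siRNA value barely passes the floor of 97.9 and lies below the 95th percentile of the olfactory receptor probe sets.

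MSLN was read by 1 probe set, 204885_s_at, at 9.11 on the control-labelled array and 7.12 on the PGR-siRNA-labelled array. Both values lie below 15.9, the median of the olfactory receptor probe sets. MUC16, the mucin that mesothelin binds, read 5.16 and 6.98, below the floor as well. MUC1, another large membrane mucin, read 122 and 174, a difference of 0.51, while its other probe sets, at -1.22 and -1.12, were below the floor on both arrays. Of 9 measured genes of mesothelin binding and processing, 7 reached the floor and 6 did so on both arrays, none of these 6 past 1.5-fold. FURIN, the protease that cuts the mesothelin precursor, read 473 and 513, a difference of 0.12. The lowest of the 6 was PCSK5, a protease of the same kind, at -0.29 with another probe set above the floor on both arrays at -0.0086. PCSK6 was at least 1.10-fold lower with its PGR siRNA value raised to the floor, and its other probe sets, below the floor, were higher on the PGR-siRNA-labelled array.

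PSCA was read by 1 probe set, 205319_at, at 41.7 and 53.4, below the floor on both arrays. Its difference of 0.35 lies well within the middle 95% of genes of like signal, -2.04 to 1.94. PSCA belongs to the LY6 and uPAR domain family of small GPI-anchored proteins. Of 17 family members measured, 10 lay under the floor on both arrays and 5 above it on both. None of the 5 was past 1.5-fold by the brightest probe set. CD59, an inhibitor of complement, was highest of the 5 at 0.10, with other probe sets above the floor on both arrays from -0.20 to 0.092. PLAUR, the urokinase receptor, was the lowest at -0.33, with its other probe sets at -0.85 and -0.57. All 3 PLAUR probe sets were above the floor on both arrays and lower on the PGR-siRNA-labelled array.

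**Figure D4:**
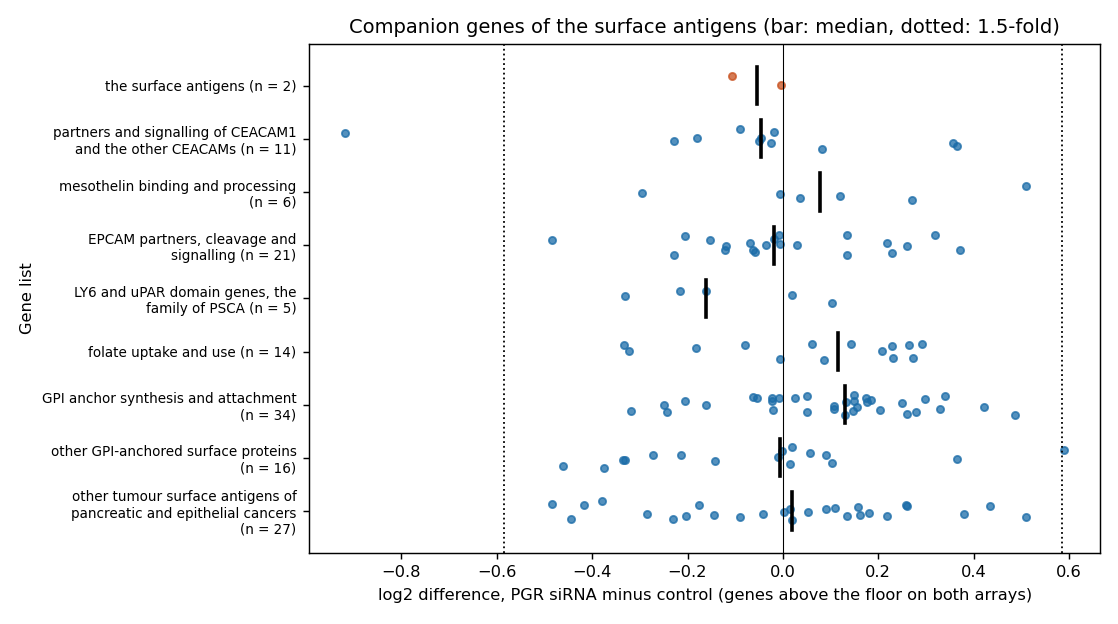
Log2 difference (PGR-siRNA-labelled minus control-labelled array) of each gene above the floor on both arrays, 1 point per gene by its brightest probe set, for the surface antigens and their companion lists, with bars at medians and dotted lines at 1.5-fold. The list medians run from -0.16 to 0.13, and ITGA5 at -0.92 and MELTF at 0.59 are the points past 1.5-fold.

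The GPI anchor that 6 of the 8 members need was followed through its machinery. Of 37 genes of GPI anchor synthesis and attachment, 36 were measured and reached the floor, 34 of them on both arrays. By the brightest probe set none was 1.5-fold different, and their median was 0.13, with 23 above 0 and 11 below. It was 0.054 with all probe sets averaged and between 0.10 and 0.18 under the other scalings. A dimmer PIGO probe set above the floor on both arrays, at 0.66, was past 1.5-fold higher. A dimmer PGAP1 probe set above the floor on both arrays, at -0.85, was past 1.5-fold lower. PIGA, which acts in the first step, stood at -0.25, and PIGK, the catalytic subunit of the enzyme that attaches the anchor, stood at 0.33 with another probe set above the floor on both arrays at -0.17. The ends were PGAP1, which removes a lipid chain from the inositol, at -0.32 with another probe set above the floor on both arrays at -0.85, and PIGW, which adds it, at 0.49. Of 29 other GPI-anchored surface proteins measured, 16 were above the floor on both arrays, with a median of -0.0065. Median centring turned this median to 0.044, and averaging all probe sets of each gene, those below the floor included, moved it to -0.19. By the brightest probe set 1 was at least 1.5-fold higher and 0 lower, beside 1.90% and 2.32% of all genes above the floor on both arrays. That one was MELTF, melanotransferrin, at 319 and 481, a difference of 0.59, while its other probe sets were below the floor on both arrays. NT5E, the ecto-enzyme CD73, was lowest at -0.46, and its other probe sets above the floor on both arrays gave -0.21 and -0.54. Among dimmer probe sets above the floor on both arrays, those of CD55 at -0.68, PLAUR at -0.85 and CD24 at -0.60 were past 1.5-fold lower. None was past it higher. All CD55 and PLAUR probe sets were lower, whereas those of CD24 differed in sign.

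Other surface antigens of pancreatic and epithelial tumours were measured for 41 of 42 genes. Of these, 27 were above the floor on both arrays and 14 on neither, which puts EPCAM and FOLR1 with the former and CEACAM5, CEACAM7, MSLN and PSCA with the latter. By the brightest probe set none of the 27 was past 1.5-fold. Dimmer probe sets above the floor on both arrays of SLC2A1 at -0.87 and CD24 at -0.60 were past it lower, and none was past it higher. The median of the 27 was 0.019 with 16 above 0 and 11 below, and -0.043 with all probe sets of each gene averaged. CDH17, a cadherin of intestinal type, read 10329 and 11548, a difference of 0.16. ERBB2, a receptor tyrosine kinase, stood at 0.16. Its relative EGFR stood at -0.23 by the brightest probe set, and its other probe sets above the floor on both arrays gave 0.0046 and 0.15, so its sign depends on the probe set. The claudin CLDN18, the mucins MUC4 and MUC16 and the phosphate transporter SLC34A2 were below the floor on both arrays in every probe set. The ends of the list were CD44 at -0.48 and MUC1 at 0.51.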

How the data were processed

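AsPC-1 cells with control or PGR siRNA were compared on 3' expression arrays, with a single array each. Linear intensity values, as the authors deposited them, give 1 value per probe set and array, already scaled to a common level (mean after trimming 2% at each end, 500.1 on both arrays). The summary algorithm, background correction and scaling are not given in the sources used here. Probe sets were named from the platform annotation (41097 with 1 symbol, 1801 with several, 11777 with none), with symbols updated to RefSeq for 41043. Values were taken as log2(intensity + 1), and a gene was read by its probe set of highest mean intensity. With 1 array per condition no test was made, and 1.5-fold is a rule of size. The number of arrays limits the precision. Members and lists were chosen with earlier results of these data known. PROM1, which has no GPI anchor, was taken out of the list of other GPI-anchored proteins after its value was seen. Genes named are the members, PGR, fixed partners, the ends of each list and list genes past 1.5-fold above the floor on both arrays; the others in the text were chosen after their values were seen. Promoter windows came from RefSeq (GRCh38.p14), which held 4 of the 8 members. Alternatives were other probe set summaries, scalings, offsets, floors and folds. The calculation was tested on simulated data, with changes placed only in genes well above the floor on both arrays. That test does not cover members near or below the floor. Python 3.11.15, numpy 2.4.6, pandas 2.3.3, statsmodels 0.14.6, matplotlib 3.10.9 and Biopython 1.88 were used.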

Additional observations from a re-analysis of the deposited data

How the results depend on the processing

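The count of 2 members at least 1.5-fold lower, CEACAM1 and CEACAM6, became 1 under several settings, and the member counted was not always the same. It was FOLR1, and neither CEACAM1 nor CEACAM6, when all probe sets of a gene were averaged or only those above the floor on both arrays. It was CEACAM1 with median centring, quantile normalization, loess (span 0.7), an offset of 16, and a 2-fold rule. The count was 0 with the floor at the 75th percentile (623) or reached on both arrays. Settings added after seeing the data gave 1, CEACAM6, with the probe set of highest mean log2 value and 0 with values below the floor raised to it. With no floor the count was 3 of 8 members. With probe sets in place of genes it was 3 of 5 probe sets, beside 6.21% of all 21528 probe sets that reached the floor. Of these 3, those of CEACAM1 and CEACAM6 reached the floor through their control value alone. The count of members at least 1.5-fold higher was 0 in every setting run. The median over the members that reached the floor, -0.35 as computed, was -0.064 when all probe sets were averaged, -0.59 without probe sets marked s or x, -0.21 with no floor, -0.055 with the floor at the 75th percentile or on both arrays, -0.11 with the probe set of highest mean log2 value and -0.15 with values raised to the floor. CEACAM1 turned to 0.31 with the probe set of highest mean log2 value, and CEACAM6 to 0.29 when its probe sets were averaged; by construction these read other probe sets, which were below the floor. FOLR1 was -0.59 with its probe sets averaged. No paired analysis was possible because each condition has 1 array and the labels give no replicate numbers. Over all genes the shares lower and higher, 4.83% and 3.71%, became 8.36% and 6.64% with probe sets averaged, 16.9% and 14.2% with no floor, 0.775% and 0.634% with the floor at the 75th percentile, and 2.32% and 1.90% with the floor on both arrays. They were 4.11% and 4.42% with median centring and 4.4% and 3.97% with quantile normalization. Loess gave 4.43% and 3.92%, and an offset of 16 gave 4.18% and 3.07%. With the probe set of highest mean log2 value they were 4.72% and 3.65%, and with values raised to the floor 2.68% and 2.28%. Averaging only probe sets above the floor on both arrays gave 1.9% and 1.63%. Low signal limits CEACAM5, CEACAM7, MSLN and PSCA.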
